A study of Mus musculus with 3 samples.

Results

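Histone genes were described in mouse bone marrow-derived dendritic cells (BMDC), antigen-presenting cells grown from marrow, on 3 Affymetrix whole-transcript arrays. The members were the probe sets whose platform symbol begins with a histone prefix (Hist1h to Hist4h, H1f, H2af, H3f, H2ac, H2bc, H3c or H4c). The rule found 63 of the 35556 probe sets. Of these, 31 name 1 gene each, for 31 genes, and 32 name several genes, which are given apart. All samples carried the same treatment and genotype. Marrow cells of strain C57BL/6J, plated at 2000000 cells per well, were cultured for 9 days in murine GM-CSF and murine IL-4 at 20 ng/ml each. The 3 arrays form 1 group, called replicates 1, 2 and 3, with no treatment, genotype or time contrast. The labels do not say whether they came from separate mice or cultures, so the spread between them may be technical, and no difference between arrays can be tested. Levels are log2 values as the authors deposited them, and 3 arrays set the precision of every level.

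Histones package DNA into nucleosomes, each built of pairs of the core histones H2A, H2B, H3 and H4, with the linker histone H1 binding where DNA enters and leaves. The canonical core genes and the genes H1f1 to H1f5 lie in clusters, have no introns, and are transcribed mainly in S phase, when new DNA must be packaged. Their mRNAs end in a stem-loop in place of a poly(A) tail. Variant histones such as H3.3, H2A.Z and macroH2A come from scattered genes with introns and ordinary poly(A) mRNAs, and are made through the cell cycle or in resting cells. GM-CSF cultures of marrow hold dividing progenitors beside differentiated cells. In bulk RNA, fewer dividing cells and less histone mRNA per cell cannot be told apart.

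Canonical histone transcripts were detected for most genes and had lower values in replicate 3. Variants were of both kinds: the shared H3.3 probe sets differed by at most 0.15 between replicates 1 and 3, and the 3 probe sets of H2A.Z by 0.38 to 0.45. Of 9 probe sets of somatic variants that name 1 gene, those found by older symbols included, 7 differed between arrays. Of these 7, 6 were lowest in replicate 3, against 34.8% of all probe sets that name 1 gene and differed. Of the 6, H3f3a and Macroh2a2 lay below the background limit given next, and 3 were the H2A.Z probe sets. Of the 24 canonical genes with a probe set of their own, 18 were above background, meaning above the 95th percentile of 1210 olfactory and vomeronasal receptor probe sets in each array (5.54, 5.54 and 5.55 log2 units). Of all 21789 probe sets that name 1 gene, 60.8% passed the same limit. Of the 19 canonical probe sets that differed between arrays at all, 18 were lowest in replicate 3, against 34.8% of the 9514 such probe sets on the array. H1f2 was the exception. Among those above background that differed, 15 of 16 were lowest in replicate 3, against 38.6% of 7204. Replicate 1 was above replicate 3 in 18 of the 24 canonical probe sets, equal to it in 6 and below it in 0. Among all 21789 that name 1 gene, replicate 1 was above in 4382 (20.1%), equal in 13158 and below in 4249. The median difference between replicates 1 and 3 was 0.23 log2 units (1.17-fold) over the 24 canonical probe sets. Over all probe sets that name 1 gene it was 0, which follows from the many that were equal in these arrays. Averaged over the 24, the deviation from a probe set's own mean came to 0.088 for replicate 1, 0.074 for replicate 2 and -0.162 for replicate 3, which spans 0.25 log2 units (1.19-fold). Without replicate 3 this span was 0.013, so the difference rests on that array.

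Values of 4 genes of the H1, H2B and H4 families span the pattern. H1f5, a linker histone of dividing cells, had 8.45, 8.29 and 7.89 in replicates 1, 2 and 3, a mean of 8.21 ± 0.29 (SD, n = 3). H1f2, a linker histone whose transcript is also known in a polyadenylated form, had 10.32, 10.37 and 10.32 (10.33 ± 0.03, SD, n = 3). Replicate 3 was thus the lowest for H1f5 and equal to replicate 1 for H1f2. H2bc14, a core H2B gene, had 9.34, 9.48 and 8.65 (9.16 ± 0.44, SD, n = 3), the largest span (0.83) among the canonical probe sets that name 1 gene. H4c4, a core H4 gene, had 12.15, 12.10 and 11.92 (12.06 ± 0.12, SD, n = 3). Both core genes were lowest in replicate 3, with replicates 1 and 2 close together.

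The 250 bases before the start site of these 4 genes are from the RefSeq table for GRCm38.p6, all on chromosome 13. They are shown because the differences of these genes between replicates 1 and 3 ran from 0 (H1f2) to 0.69 (H2bc14). The latter was the largest among canonical probe sets that name 1 gene. A link between motifs and array differences was not tested. Capitals mark a CCAAT box, a TATA box, an octamer or an H1 box, on either strand, with the letters of each given after the sequences. No marked motif overlaps another in them.
H1f5, chr13:21780626-21780875, minus strand: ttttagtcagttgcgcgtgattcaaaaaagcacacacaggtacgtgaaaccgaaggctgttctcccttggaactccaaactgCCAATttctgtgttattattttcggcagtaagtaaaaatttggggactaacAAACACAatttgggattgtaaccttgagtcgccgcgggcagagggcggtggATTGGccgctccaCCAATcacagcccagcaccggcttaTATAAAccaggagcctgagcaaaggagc
H1f2, chr13:23738557-23738806, plus strand: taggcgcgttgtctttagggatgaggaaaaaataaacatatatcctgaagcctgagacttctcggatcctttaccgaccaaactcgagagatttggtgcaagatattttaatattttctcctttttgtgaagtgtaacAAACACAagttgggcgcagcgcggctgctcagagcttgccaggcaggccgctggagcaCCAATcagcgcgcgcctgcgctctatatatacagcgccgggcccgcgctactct
H2bc14, chr13:21721794-21722043, plus strand: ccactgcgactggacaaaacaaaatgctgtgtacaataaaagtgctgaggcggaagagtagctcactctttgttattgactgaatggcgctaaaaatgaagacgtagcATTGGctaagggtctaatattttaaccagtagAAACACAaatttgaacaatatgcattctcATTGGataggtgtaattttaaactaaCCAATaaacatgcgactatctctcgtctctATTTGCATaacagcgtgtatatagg
H4c4, chr13:23581318-23581567, plus strand: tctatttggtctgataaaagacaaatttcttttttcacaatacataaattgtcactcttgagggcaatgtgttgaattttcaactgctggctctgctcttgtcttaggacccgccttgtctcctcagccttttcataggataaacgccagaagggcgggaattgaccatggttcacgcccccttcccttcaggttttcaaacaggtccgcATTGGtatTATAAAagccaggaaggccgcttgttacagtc

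Both H1 promoters held an H1 box, 117 bases before the start in H1f5 and 112 in H1f2, and a CCAAT box at 53 and 54 bases. The far end of the H2bc14 window overlaps H2ac14, annotated as a pseudogene. Of the 31 genes, 27 matched a promoter in the table, 20 of them canonical. The CCAAT box (CCAAT or its complement ATTGG) was found in 16 of the 20 canonical promoters (80%), among them all 4 of H1, all 3 of H2A and all 6 of H2B, and in 33.8% of all 32851 promoters of this length. TATAAA or TTTATA was found in 12 of the 20 (60%) against 12.4% of all. The octamer, a sequence bound by Oct factors in H2B promoters, was found as ATTTGCAT or ATGCAAAT in 4 of 6 H2B and 2 of 3 H2A promoters and in 0 of the H1, H3 and H4 promoters, against 1.6% of all. The H1 box, as AAACACA or TGTGTTT, was found in 3 of 4 canonical H1 promoters, in those of H2ac4 and H2bc14, and in 4 of 7 variant promoters (H1f6, H2ac1, H2bc1 and H3f3a), against 6.2% of all. The variant promoters held the CCAAT box in 5 of 7 and the octamer in 2 of 7, those of H2ac1 and H2bc1. These are matches of letters and show no binding.

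All 4 canonical linker genes measured alone were above background. Beside H1f5 and H1f2, H1f1 had 8.01, 7.84 and 7.54 (7.80 ± 0.24, SD, n = 3) and H1f3 had 6.34, 6.26 and 6.20 (6.27 ± 0.07, SD, n = 3). The 3 arrays kept the order 1, 2, 3 from high to low in H1f1, H1f3 and H1f5. H1f4 shares its probe set with H2bc6, which had 7.11, 7.11 and 7.06.

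Of 3 H2A genes measured alone, H2ac15 was above background. H2ac15 had 10.64, 10.64 and 10.33 (10.53 ± 0.18, SD, n = 3), lowest in replicate 3. H2ac4 (5.38, 5.43 and 4.76) and H2ac8 (3.64, 3.64 and 3.10) lay below the limit in each array, so their differences carry no statement on expression.

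Of 8 H2B probe sets that name 1 gene, 7 were above background. H2bc3 had 8.54, 8.55 and 8.11 (8.40 ± 0.25, SD, n = 3) and H2bc18 had 7.20, 7.20 and 6.77 (7.06 ± 0.25, SD, n = 3). H2bc8 had 7.62, 7.54 and 7.24 (7.47 ± 0.20, SD, n = 3) and H2bc9 had 8.89, 8.91 and 8.67 (8.83 ± 0.14, SD, n = 3). In these and in H2bc14, replicates 1 and 2 lay close together and above replicate 3. H2bc4 differed less, with 11.74, 11.73 and 11.63 (11.70 ± 0.06, SD, n = 3). H2bc21, also known in a polyadenylated form, had 5.76 in each array, just above the limit, and H2bc22 lay just below it at 5.35, 5.35 and 5.31.

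Of the H4 genes, 5 of 6 were above background. H4c6 had 9.02, 8.85 and 8.68 (8.85 ± 0.17, SD, n = 3) and H4c14 had 10.26 and 10.28 in replicates 1 and 2 and lay 0.28 below replicate 2 in replicate 3 (10.18 ± 0.16, SD, n = 3). H4c3 had 7.57, 7.68 and 7.42 (7.56 ± 0.13, SD, n = 3). These 3 and H4c4 were lowest in replicate 3, with differences of 0.16 to 0.34 from replicate 1. H4c9 had 6.45 in each array, and H4c8, at 5.50 in each, was the member just under the limit.

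H3 genes could hardly be told apart. H3c4 had 6.57, 6.57 and 6.50 (6.54 ± 0.04, SD, n = 3), while H3c15 (4.76) and H3c7 (3.23) lay below background and were identical in the arrays. Most H3 genes are read by shared probe sets, so these 3 do not stand for H3 transcripts as a whole.

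**Figure D1:**
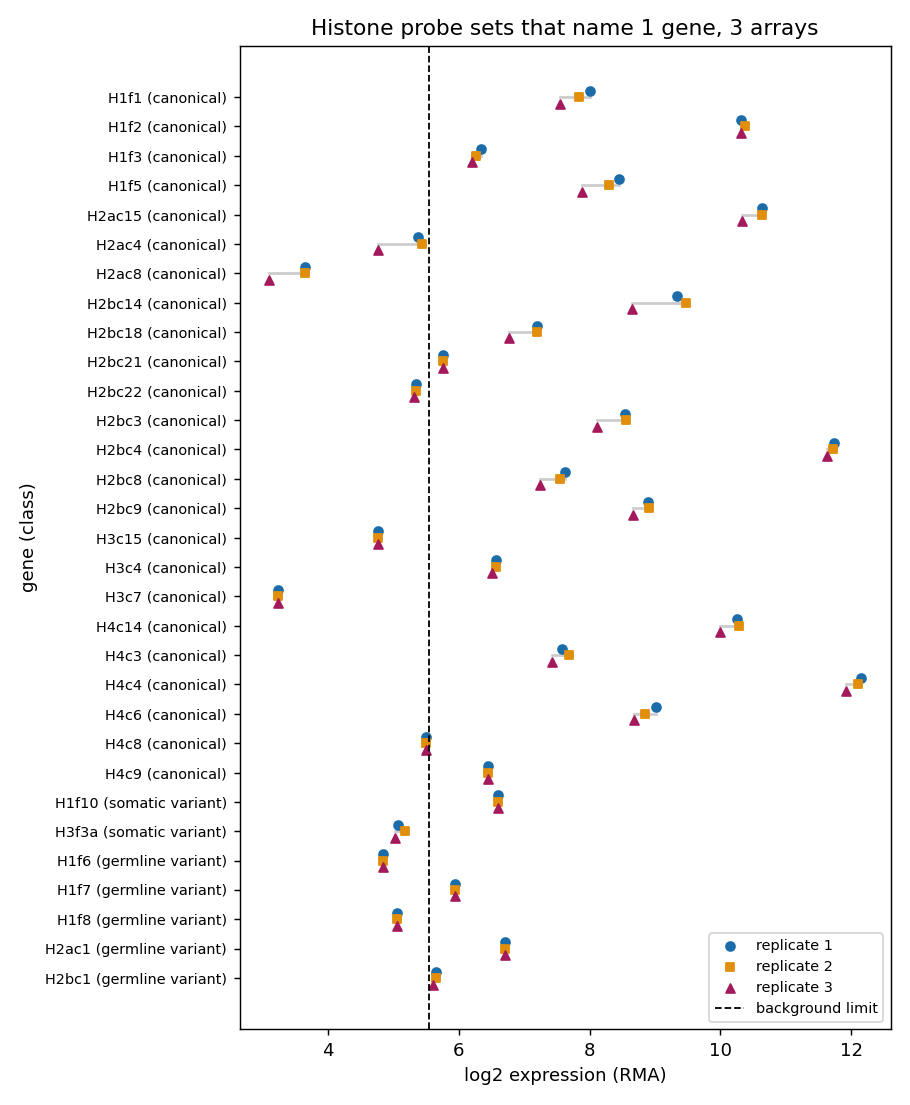
Log2 expression (x axis) of the 31 histone probe sets that name 1 gene (y axis, with class), 1 point per array, with the background limit of 5.55 as a dashed line. Replicate 3 lies to the left of replicates 1 and 2 in 18 of the 24 canonical probe sets, and points fall together where the arrays were identical.

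Copies of a core histone are nearly the same in sequence, and 32 probe sets name several genes. Of these, 10 name many copies of H3, 7 of H2B, 5 of H4 and 2 of H2A, 6 name an H3.3 gene with 1 other symbol, 1 names H2bc6 with H1f4 and 1 names H4c11 with H4c17. Of the 32, 31 were above background, against 61.4% of the 1621 probe sets that name several genes, and 30 of 32 were lowest in replicate 3, against 36.7% of the 1032 probe sets of this kind that differed between arrays. They are no separate observations, because many name the same genes: 4 of them hold just 2 distinct sets of values. They cannot assign a signal to a gene, either. Those with many copies add a reading of each core family.

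The H3 family differed most between arrays. Its 10 probe sets, each naming 12 H3 genes, ranged from 11.76 to 12.16 in replicate 1, from 11.67 to 12.07 in replicate 2 and from 11.15 to 11.61 in replicate 3. In each of the 10, replicate 1 was above replicate 2 and replicate 2 above replicate 3. The difference between replicates 1 and 3 was 0.52 to 0.63 with a median of 0.58 (1.49-fold), and it exceeded 0.5 in all 10, against 1.54% of the probe sets that name several genes. Among canonical probe sets that name 1 gene, 4 of 24 passed 0.5, namely H1f5, H2bc14 and the H2ac4 and H2ac8 probe sets that lay below background, against 1.52% of all.

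The other core families differed less. The 7 H2B probe sets, which name 14 or 15 genes, ranged from 11.10 to 11.71 in replicate 1, from 11.08 to 11.73 in replicate 2 and from 10.87 to 11.39 in replicate 3, with a median difference between replicates 1 and 3 of 0.32 (1.25-fold). The H2A probe set with 19 symbols had 11.05, 11.02 and 10.74, and that with 20 had 11.76, 11.72 and 11.46; both also name the variant H2ax and the H3 gene H3c4. The 5 H4 probe sets, each naming 11 genes, ranged from 11.95 to 12.07 in replicate 1, from 11.95 to 12.06 in replicate 2 and from 11.72 to 11.87 in replicate 3, with a median difference of 0.23 (1.17-fold). In these 3 families replicates 1 and 2 overlapped and replicate 3 was lowest in every probe set. The probe set of H4c11 and H4c17 had 5.95, 5.79 and 5.09, above background in replicates 1 and 2 and below it in replicate 3.

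H3.3, the variant that replaces canonical H3 outside replication, is encoded by H3f3a and H3f3b. The 2 probe sets of H3f3b, shared with Gm6485, had 10.91, 10.92 and 10.91, and 10.98, 11.01 and 10.98. The 4 probe sets of H3f3a, shared with Gm12657, ranged from 10.07 to 10.35 in replicate 1, from 10.13 to 10.35 in replicate 2 and from 9.91 to 10.32 in replicate 3. The difference between replicates 1 and 3 was at most 0.15 over the 6 H3.3 probe sets, and at least 0.52 over the 10 of canonical H3. A probe set that names H3f3a alone lay below background (5.07, 5.17 and 5.03), while the shared ones were above it.

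The remaining variants named by the rule differed by at most 0.05 between arrays. H1f10, the replication-independent linker histone H1X, had 6.60 in each array. Of the germline variants, H2ac1 and H2bc1, the testis forms of H2A and H2B, had 6.71 in each array and 5.65, 5.65 and 5.60. H1f7, a linker histone of spermatids, had 5.94, while H1f6 of testis (4.84) and H1f8 of oocytes (5.05) lay below background. In all, 4 of the 7 variant probe sets that name 1 gene passed the limit (57.1%), near the 60.8% of all such probe sets, and 5 of the 7 were identical in the arrays, as were 56.3% of all.

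Several variants carry newer platform symbols that the prefixes miss, and were added by their older symbols after the values had been seen. They were 15 probe sets of canonical, variant and pseudogene members, 13 of them above background, against 60.8% of all probe sets that name 1 gene. H2az1, which encodes H2A.Z, a variant placed at promoters, had 10.59, 10.47 and 10.17 on one probe set (10.41 ± 0.22, SD, n = 3) and 10.13, 9.97 and 9.68 on the other (9.92 ± 0.23, SD, n = 3). H2az2, its paralog, had 8.26, 8.12 and 7.88 (8.09 ± 0.19, SD, n = 3). In all 3 H2A.Z probe sets the arrays ran in the order 1, 2, 3 from high to low. Macroh2a1, a large variant linked with silent chromatin, had 9.56, 9.54 and 9.44 (9.51 ± 0.06, SD, n = 3), and Macroh2a2 lay below background (4.93, 5.01 and 4.80). H2ax, the variant phosphorylated at DNA breaks, had 7.10, 7.10 and 7.14, and H2aj had 7.19 in each array. In H2ax, unlike in H2A.Z, replicate 3 was not the lowest array.

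Of the other genes added this way, the canonical H2aw had 9.65, 9.63 and 9.29, H4f16 had 7.83, 7.78 and 7.62, and H2bu2 had 5.77, 5.75 and 5.75. The germline genes H2ab1 (5.60 on both of its probe sets) and H2al2a (6.16, 6.16 and 6.24) and the pseudogene H2bu1-ps (6.39, 6.38 and 6.38) were above the limit, and the pseudogene Macroh2a3 lay below it. Cenpa, the H3 variant of centromeres, is not covered by either set of symbols and had 9.34, 9.34 and 9.40.

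**Figure D2:**
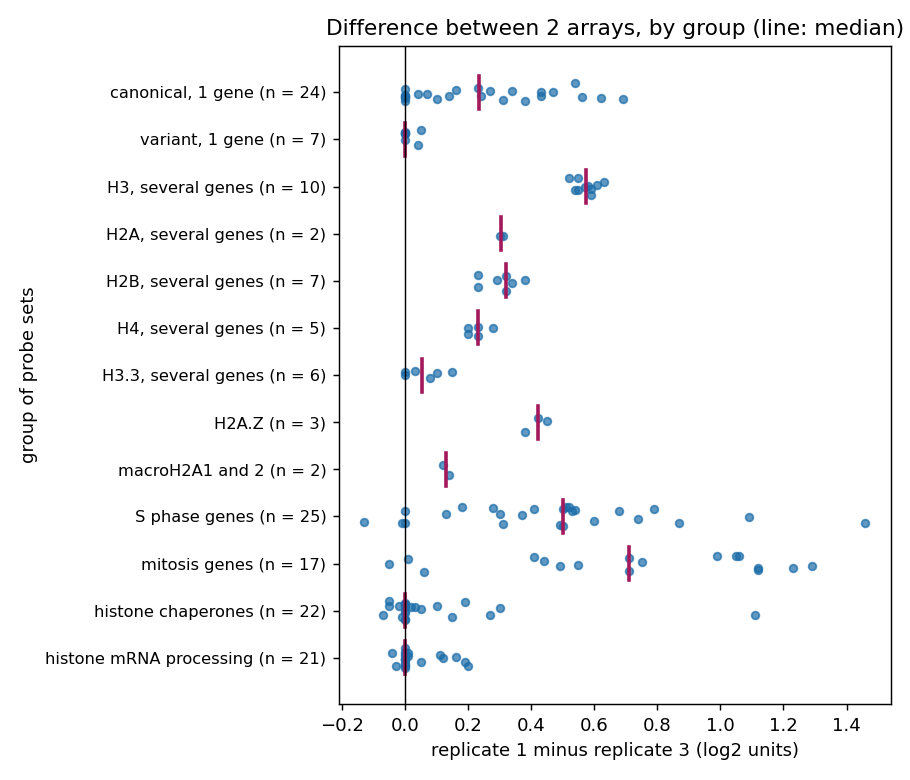
Difference between replicates 1 and 3 in log2 units (x axis) for each probe set (points), by group (y axis), with the group's median as a line. The 10 probe sets shared by H3 genes lie between 0.52 and 0.63, the 6 of H3.3 between 0 and 0.15, and histone chaperone and mRNA processing genes are centred on 0.

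Genes that act with histones were described from lists of histone chaperones, histone mRNA factors, S phase genes and mitosis genes, with 1 probe set per gene. The probe set with the highest mean was taken, which favours a count above background. The 60.8% of all probe sets that name 1 gene is thus no like share for these counts. All 22 measured chaperone genes were above background, but 8 (36.4%) were identical in the arrays. This was the case for 56.3% of all probe sets that name 1 gene, and for 45.6% of those above background. The median difference between replicates 1 and 3 was 0. Of the 14 that differed, 8 were lowest in replicate 3. Of all probe sets that name 1 gene and differed, 34.8% were, and 38.6% of those above background. The largest difference between replicates 1 and 3 was in Asf1b, the H3 and H4 chaperone of dividing cells, with 8.23, 7.74 and 7.12 (7.70 ± 0.56, SD, n = 3), whereas its paralog Asf1a had 6.72, 6.72 and 6.78. Chaf1a and Chaf1b, subunits of the assembly factor CAF-1, had 6.79 and 7.43 in each array. Nasp, which binds free H3 and H4, had 6.48, 6.29 and 6.19, and Npm1, nucleophosmin, had 9.51, 9.29 and 9.24, differences of 0.30 and 0.27 between replicates 1 and 3.

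Of 21 measured factors of histone mRNA, 20 were above background and 11 were identical in the arrays, with a median difference of 0. Of the 10 that differed, 7 were lowest in replicate 3, against the same 34.8% of all and 38.6% of those above background. Slbp, which binds the stem-loop of histone mRNA, had 7.62, 7.58 and 7.43 (7.54 ± 0.10, SD, n = 3). Npat, the coactivator of histone transcription, had 7.27 in each array, and Casp8ap2, needed for histone gene expression in S phase, had 7.15, 6.99 and 6.95. Zfp473, a zinc finger protein of the processing complex, lay below background at 5.35. The largest difference between replicates 1 and 3 in this list was 0.20, in Casp8ap2.

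S phase and mitosis genes also had lower values in replicate 3. Of 25 S phase genes, 23 differed between arrays. Of these 23, 20 were lowest in replicate 3, against 34.8% of all probe sets that name 1 gene and differed. The median difference between replicates 1 and 3 over the 25 was 0.50 (1.42-fold). Mcm2, a subunit of the replicative helicase, had 7.77, 7.50 and 7.09, and Rrm2, the ribonucleotide reductase subunit of S phase, had 8.47, 8.04 and 7.38. Pcna, the sliding clamp, ran the other way with 11.13, 11.13 and 11.27. Of 17 mitosis genes, which all differed between arrays, 14 were lowest in replicate 3, against the same 34.8%. Their median difference was 0.71 (1.64-fold), and Top2a, which untangles chromosomes, had 8.06, 7.61 and 6.77.

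Replicates 1 and 2 differed in these lists as well. Replicate 2 was below replicate 1 in 20 of 25 S phase genes and 16 of 17 mitosis genes. Among the 24 canonical histone probe sets that name 1 gene, replicate 2 was lower in 7, higher in 7 and equal in 10. In the shared H3 probe sets it was lower in 10 of 10, with a median difference of 0.089 between replicates 1 and 2, against 0.18 for the S phase genes. These differences between groups of genes were not tested.

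**Figure D3:**
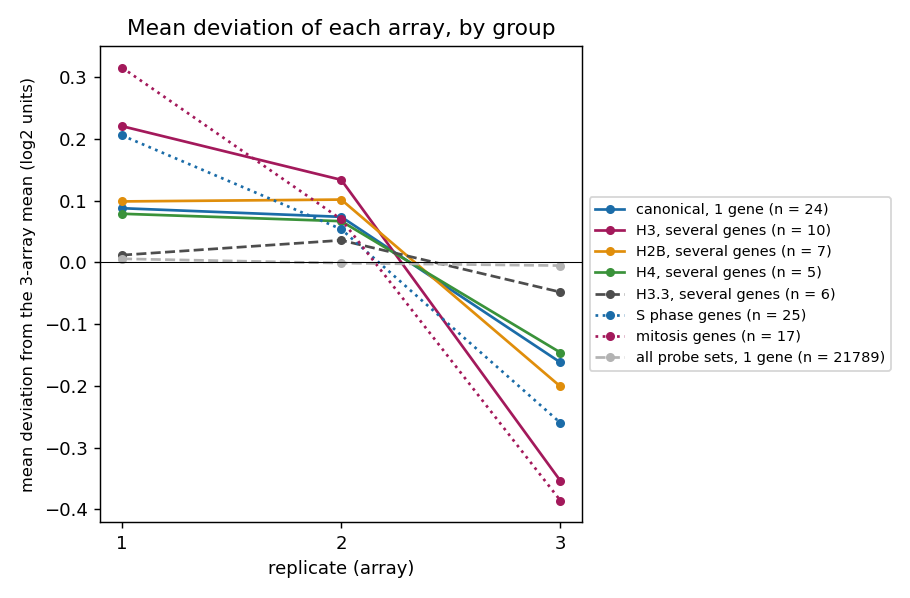
Log2 units above or below a probe set's own mean (y axis), averaged over each group of probe sets, for the replicates (x axis). Mitosis genes run from 0.316 to -0.386 and canonical histone probe sets that name 1 gene from 0.088 to -0.162, while all probe sets that name 1 gene stay between 0.006 and -0.005.

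Markers of other cells also differed between the arrays, and their part in the histone differences was not tested. The probe set with the highest mean was read for each marker, which favours a count above background. Of all probe sets that name 1 gene, 60.8% passed the limit, which is thus no like share for these counts either. All 14 markers of dendritic cells and macrophages were above background, with mean levels of 10.70, 10.74 and 10.69 in replicates 1, 2 and 3. Single markers moved both ways: replicate 1 was above replicate 3 in 5, equal in 4 and below it in 5. Itgax, the gene of CD11c, had 11.91, 11.92 and 11.91. Ccr7 had 10.15, 10.50 and 9.74, and Irf8 had 10.06, 10.17 and 10.33. T and NK cell markers, 7 of 10 above background, had mean levels of 8.03, 7.72 and 7.19. The 7 above background had 9.37, 8.97 and 8.24. All 7 were lowest in replicate 3, against 38.6% of all probe sets above background that name 1 gene and differed. Among them were Gzmb (10.89, 10.56 and 9.69), Il2rb (9.81, 9.47 and 8.42) and Cd3e (9.09, 8.79 and 8.15). Ncr1 and Klrd1 were below the limit in each array, and Cd2 (5.62, 5.31 and 5.09) was above it in replicate 1. Mast cell and basophil markers, 3 of 7 above background, had mean levels of 6.37, 6.47 and 5.40, with Kit below the limit in each array. The 6 that differed were all lowest in replicate 3, against 34.8% of all probe sets that name 1 gene and differed. Among them were Prss34 (7.75, 8.24 and 6.38), above background, and Cpa3 (7.38, 7.54 and 5.38), which passed the limit in replicates 1 and 2. Neutrophil markers, 4 of 9, had 6.12, 5.98 and 5.36, with Elane and Ltf below the limit. The 4 above background had 5.74, 5.80 and 5.66, while Lcn2 (7.98, 6.69 and 5.12), Ly6g (6.73, 6.80 and 4.86) and Retnlg (7.35, 7.11 and 5.55) were high in replicates 1 and 2 and did not pass the limit in replicate 3. Stem and progenitor markers, 5 of 7, had 7.20, 7.14 and 6.95, with Kit and Flt3 below the limit. B cell markers, 2 of 4, had 5.11, 5.11 and 4.98, erythroid markers, 2 of 4, had 5.43, 5.43 and 5.45, and stromal markers, 3 of 7, had 7.30, 5.66 and 5.76. The 3 stromal markers above background had mean levels of 6.52, 6.38 and 6.41, while Dcn (8.12, 5.36 and 5.41), Bgn (8.19, 5.33 and 5.31) and Lox (7.58, 4.47 and 4.63) passed the limit in replicate 1 and not in the others. Sparc (7.64, 5.34 and 5.78) passed it in replicates 1 and 3. The listed B cell genes Cd79a and Ms4a1 and the erythroid genes Alas2 and Klf1 were below the limit.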

How the data were processed

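The authors' deposited log2 values come from RMA, which the submitters' processing notes name. In general RMA subtracts background, applies quantile normalization and combines probes by median polish. For the software version and the build, the sources used here give nothing. Each sample used 150 ng of total RNA, and array medians were 5.91, 5.91 and 5.91. Of the probe sets that name 1 gene, 56.3% were identical in the arrays, so an SD near 0 is no measure of precision. Probe sets were named from the platform annotation: 21789 name 1 gene, 1621 several, and 12146 are unnamed here. Counts, means and deviations were computed in Python 3.11.15 with pandas 2.3.3 and checked on simulated data. The simulated members had no identical values and lay well above the limit, so ties and calls near the limit were not checked. With 1 group, no test was run. The classes follow textbook knowledge. Any member could be named. From each other list, the first 4 measured genes could be named, and up to 4 with the largest span among those above background in at least 1 array. Zfp473, Ncr1, Klrd1, Elane, Ltf and, as a mast cell marker, Kit were named outside this rule, after their values were seen. The members and lists were chosen with earlier results of these data known. Alternatives covered the limit, the members, the centring and each array left out. Those with 1 probe set per gene could change nothing, since the 31 genes have 1 each. They still count among the values within the tolerance.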

Additional observations from a re-analysis of the deposited data

How the results depend on the processing

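No paired analysis was possible because the arrays form 1 group. Of 52 alternative values, 41 stayed within the tolerance and 11 did not. Counts and ranges have no sign, so a reversal was not possible. The tolerance was 1.5 times for a count and 1 SD between arrays for a range, and the variant range lies at its edge: 0.014 without replicate 2 was past it and 0.014 without replicate 3 was not. Canonical probe sets above background numbered 16 to 20 under the alternatives by platform symbol, and 21 with older symbols. The count of variant probe sets above background (4) became 2 with the limit at the 99th percentile and 13 with older symbols. The array range of the canonical mean deviation (0.25) was 0.013 to 0.25 with each replicate left out. That of the variants (0.028) was 0.014 to 0.028 with each replicate left out, 0.013 over members above background, 0.098 over members that differed between arrays, 0 with the median over members and 0.087 with older symbols. The 4 canonical probe sets over 0.5 higher in replicate 1 than in replicate 3 became 11 at 0.25, 0 at 1 log2 unit and 2 over members above background. Older symbols, and receptor probe sets naming several genes, were alternatives chosen after seeing the data. Signals near the receptor limit cannot be told from background.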
